A study of Mus musculus with 2 samples.

Results

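The clustered histone genes of the mouse were examined in primordial germ cells (PGCs), the embryonic precursors of eggs and sperm, with and without over-expression (OE) of the transcription factor gene Klf9. A gene was taken when its symbol was Hist1h, Hist2h, Hist3h or Hist4h followed by a histone type and it was listed under its own name in both libraries. This gave 61 genes of 22843 symbols listed in both, of which 60 were above 0 in at least 1 library. They comprised 6 genes for the linker histone H1, 14 for H2A, 19 for H2B, 10 for H3 and 12 for H4. By cluster, 51 lay in Hist1 on chromosome 13, 6 in Hist2 on chromosome 3, 3 in Hist3 on chromosome 11 and 1, Hist4h4, on chromosome 6.

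Both libraries came from PGCs of embryonic day 13.5, sorted by GFP from genital ridges of both sexes, from MCH females mated with Oct4-deltaPE-GFP males, and all cells in both groups therefore derived from crosses with that reporter. The cells were infected with a lentivirus at a multiplicity of infection of 5 and cultured for 1 day on gelatin, in the same medium for both groups. The labels list this medium with the growth factor bFGF, while the study's text describes these cultures as lacking it, so its bFGF content is uncertain here. The Klf9-OE cells received a virus that carried the Klf9 coding region in a CSII-EF vector, and the control cells a control virus whose vector was not specified for RNA-seq. There was 1 library in each group, so no difference below has a replicate check and no p-value was computed. Expression was given as FPKM (read fragments scaled to transcript length and to the number of mapped reads), with a 95% interval that covers the error of estimation within a library and not the variation between cultures. Klf9 itself was at 2.27 FPKM (1.97 to 2.57) in the control and 80.8 FPKM (77.0 to 84.5) in Klf9-OE PGCs, which was 35.6-fold higher.

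Histones are the proteins around which DNA is wound. Pairs of H2A, H2B, H3 and H4 form the nucleosome core and H1 binds the DNA that links the cores. The genes of the clusters are called replication-dependent because most are transcribed in S phase, when new DNA has to be packaged. Unlike other animal mRNAs, most of theirs end in a short stem-loop in place of a poly(A) tail, and the stem-loop-binding protein SLBP holds that end during processing, export and translation. Histone variants such as H2A.Z and H3.3 are encoded by separate genes outside the clusters, with ordinary polyadenylated mRNAs. The libraries were made with the TruSeq RNA v2 kit, which selects RNA by its poly(A) tail, so the FPKM of a clustered histone gene describes the part of its RNA that this selection retained.

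The stem-loops are shown because they are the feature that sets these mRNAs apart. In GENCODE transcripts (GRCm38, the same assembly as the mm10 of the files) a 16-base pattern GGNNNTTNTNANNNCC with a complementary stem of 6 base pairs and a loop of 4 bases was found in 39 of the 61 genes, against 0.315% of 21877 protein-coding genes, a figure that includes the members. Of the 22 genes without a match, 11 have only a transcript model that holds the coding sequence alone, and a missing match says only that these letters are not in the model. There were 8 different stem-loops. In the sequences that follow the loop is in capitals and the stem in lower case, and each is named by the gene of highest FPKM that carries it.
Hist1h1c: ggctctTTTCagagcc
Hist1h4d: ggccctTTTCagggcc
Hist1h2bk: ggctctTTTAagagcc
Hist1h4i: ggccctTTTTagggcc
Hist1h4j: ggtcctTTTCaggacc
Hist1h4a: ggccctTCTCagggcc
Hist1h3g: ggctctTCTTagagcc
Hist2h2ac: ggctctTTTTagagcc
The first was the most common, in 20 genes of the H1, H2A, H2B and H3 types. It lies at chr13:23739512-23739527 (+) in Hist1h1c. The Hist1h4d form was carried by 6 genes and the Hist1h2bk form by 6 genes. All 11 H4 genes with a match had a stem opening with ggccc or ggtcc, which no match in the other types had.

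The clustered histone genes were measured at low levels in both libraries. Their median was 1.21 FPKM in the control and 1.54 FPKM in Klf9-OE PGCs, where the median of the 18337 symbols above 0 in at least 1 library was 3.77 and 3.73 FPKM. Of the 61 genes, 35 reached 1 FPKM in the control and 43 in Klf9-OE PGCs. All 61 together summed to 78.5 FPKM (71.6 to 85.5) in the control. Of 20 listed genes for replication-independent variants, 19 were found in both libraries and 15 were above 0. They summed to 1430 FPKM in the control, 18.2 times as much as the clustered genes, and to 13.3 times as much in Klf9-OE PGCs. FPKM is scaled to transcript length, but poly(A) selection can retain unequal parts of the 2 kinds of mRNA, so the sums compare what was retained and not the amounts of mRNA in the cells. The width of the intervals implies a median of 9.15 reads per gene in the control and 13 in Klf9-OE PGCs, and 55 of 59 genes in the control and 49 of 60 in Klf9-OE PGCs rested on fewer than 20 implied reads. Implied reads were even for 36.2% of control loci with 1 to 9 whole implied reads and for 86.8% of such Klf9-OE loci. Where reads are entered in pairs an interval is too narrow, so for sums and ratios the Klf9-OE intervals were widened by the square root of 2.

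**Figure D1:**
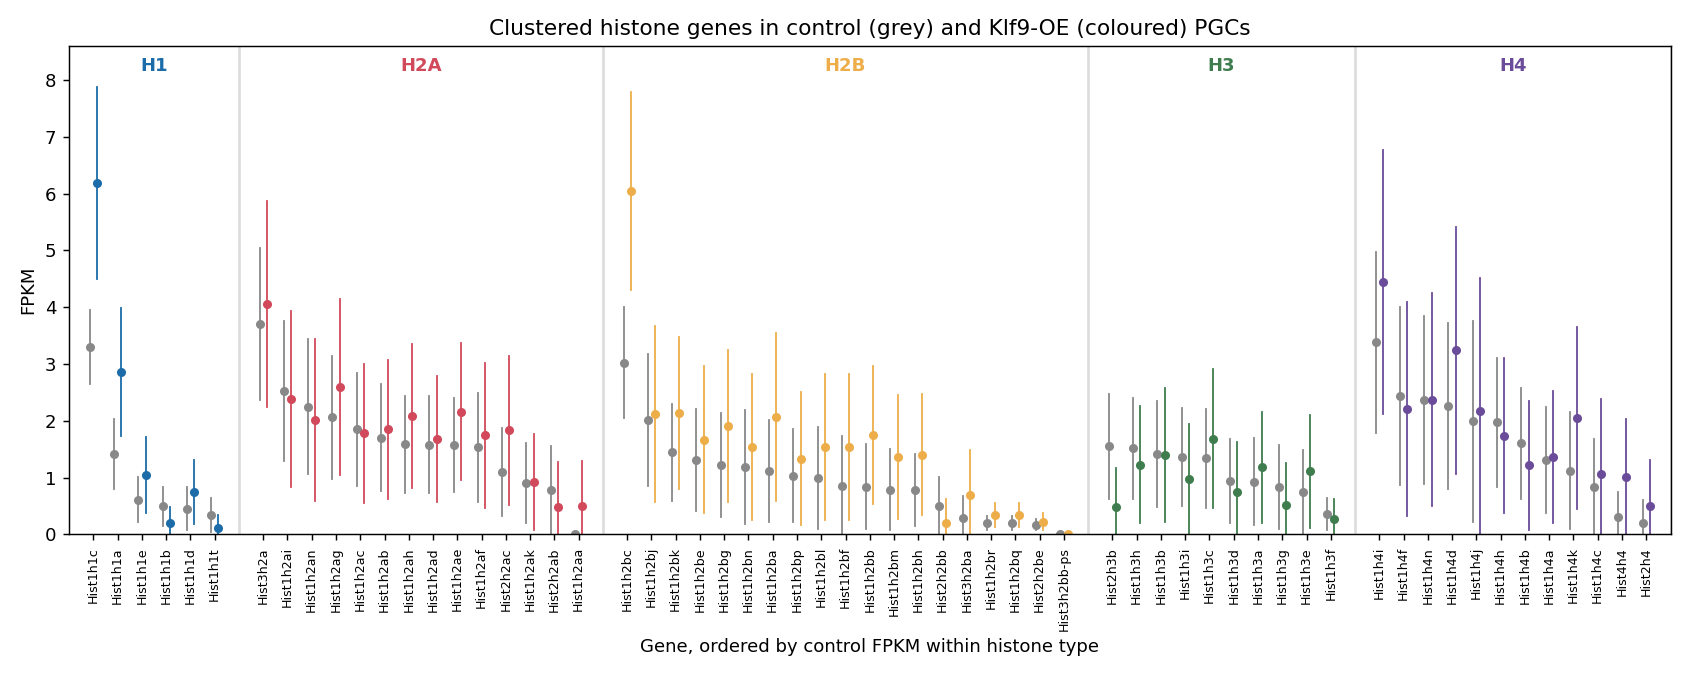
FPKM of each of the 61 genes (vertical axis) in the control (grey) and in Klf9-OE PGCs (coloured), grouped by histone type and ordered by control FPKM. Points are the single library of each group and lines the 95% intervals, with those of Klf9-OE widened by the square root of 2. Hist1h1c and Hist1h2bc are the only genes above 5 FPKM in either library and the only ones whose intervals, as drawn, do not overlap. The FPKM of Hist1h1c was calculated over unequal lengths in the 2 libraries. No share of all symbols was taken with widened intervals.

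Most clustered histone genes had a somewhat higher FPKM in Klf9-OE PGCs, and few differed 2-fold. By any amount, 43 of the 60 genes above 0 were higher (71.7%), where 48.1% of all symbols were. The median log2 fold change, taken on log2(FPKM + 0.1) here and wherever a log2 fold change of a gene is given, was 0.32 for the clustered genes, with quartiles of -0.06 and 0.63, and -0.01 for all symbols. Their summed FPKM was 78.5 in the control and 98.4 in Klf9-OE PGCs, a ratio of 1.25 (1.10 to 1.43). The intervals of sums and ratios treat the errors of the genes as independent. For genes with shared sequence, whose reads are divided between them, this is an approximation.

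At the 2-fold limit, 3 genes were higher and 2 lower, where 4.52% of all symbols were higher and 4.01% lower, so these counts were close to the background. With FPKM rescaled to the same sum in both libraries 7 of the 60 genes were 2-fold higher (11.7%), where 4.93% of all symbols were, and 2 were lower, where 3.75% were. The additional 4 genes were Hist1h1a, Hist1h2bb, Hist1h2bc and Hist2h4, which lay just under the limit as deposited. The genes 2-fold higher were Hist1h2aa, Hist4h4 and Hist3h2ba, and those lower were Hist2h3b and Hist1h1t. All 5 had overlapping intervals in the 2 libraries. By intervals that did not overlap, 3 genes were higher, namely Hist1h1c, Hist1h2bc and Hist1h1a, and none was lower, where 11.3% of all symbols were higher and 14.4% lower by this rule. These intervals are wide for genes with few reads. Among the 45 clustered genes with at least 1 FPKM in either library, 35 were higher by any amount (45.9% of all symbols with that level), 1 was 2-fold higher (3.68%) and 1 was 2-fold lower (3.51%). In this subset 3 had non-overlapping intervals in the higher direction (14.9%) and 0 in the lower (20.3%). No count is a test, since there was 1 library per group.

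H1 genes encode the linker histones. Hist1h1c, encoding H1.2, was at 3.30 FPKM (2.64 to 3.96) in the control and 6.19 FPKM (5.0 to 7.38) in Klf9-OE PGCs, and its locus was not the same in both libraries, as described further on. Hist1h1a, encoding H1.1, was at 1.41 FPKM (0.795 to 2.03) and 2.86 FPKM (2.07 to 3.66), at chr13:23763668-23764412. Its intervals did not overlap as deposited, but they did once the Klf9-OE interval was widened. Hist1h1e was at 0.607 FPKM in the control and 1.05 FPKM in Klf9-OE PGCs, and Hist1h1d at 0.455 and 0.748 FPKM. Hist1h1b, encoding H1.5, stood the other way, at 0.492 FPKM in the control and 0.202 FPKM in Klf9-OE PGCs. Hist1h1t, the testis-specific H1, was at 0.342 FPKM and 0.112 FPKM, on 5 and 1.99 implied reads, with overlapping intervals. Thus 4 of the 6 H1 genes were higher, with a median log2 fold change of 0.66. The H1 sum was 6.61 FPKM in the control and 11.2 FPKM in Klf9-OE PGCs, a ratio of 1.69 (1.30 to 2.20), and without Hist1h1c the ratio was 1.5 (0.996 to 2.27).

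H2B was the type in which almost every gene was higher. Of 18 H2B genes above 0, 17 were higher in Klf9-OE PGCs. The exception, Hist2h2bb, was at 0.503 FPKM in the control and 0.206 FPKM in Klf9-OE PGCs, on 4.0 and 1.99 implied reads. Its 51-base stretches were 100% shared, but with 2 other genes of which 0 are H2B genes by name. The remaining gene, Hist3h2bb-ps, a pseudogene, was listed at 0 in both. By non-overlapping intervals 1 of the 18 was higher and 0 lower, where 11.3% of all symbols were higher and 14.4% lower. The 17 higher genes are not separate readings. Reads of shared sequence are divided between genes, and Hist1h2bq and Hist1h2br had the same values. The median log2 fold change was 0.57, and the H2B sum was 18.0 FPKM in the control and 28.2 FPKM in Klf9-OE PGCs, a ratio of 1.57 (1.22 to 2.02). Hist1h2bc had the highest FPKM of the type, at 3.02 (2.04 to 4.0) in the control and 6.05 (4.81 to 7.29) in Klf9-OE PGCs, which did not overlap even with the wider interval. Its deposited locus, chr13:23684199-23692480 (+), covers the first of 2 GENCODE exons, of 423 bases, in which the coding sequence lies, and ends within the second, a noncoding exon of 733 bases, of which it covers 305. The spliced GENCODE transcript contained no stem-loop match. Without Hist1h2bc the ratio of the H2B sum was 1.48 (1.11 to 1.98). Hist1h2bb was at 0.840 FPKM in the control and 1.75 FPKM in Klf9-OE PGCs, and Hist1h2bj, at the low end of the higher genes, at 2.02 and 2.12 FPKM. Hist3h2ba was at 0.282 FPKM and 0.692 FPKM, on 1.99 and 6 implied reads.

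H2A genes differed less. Of 14 genes, 10 were higher, the median log2 fold change was 0.12, and the sum was 23.2 FPKM in the control and 26.1 FPKM in Klf9-OE PGCs, a ratio of 1.13 (0.887 to 1.43). The H2A gene of highest control level, Hist3h2a, was at 3.70 FPKM (2.37 to 5.03) and 4.06 FPKM (2.78 to 5.34). Hist2h2ac was at 1.10 and 1.83 FPKM. The levels of H2A genes in the control ran from 0, for Hist1h2aa, to this 3.70 FPKM.

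H3 was the type with more genes lower than higher. Of 10 genes, 3 were higher, the median log2 fold change was -0.30, and the sum was 11 FPKM in the control and 9.58 FPKM in Klf9-OE PGCs, a ratio of 0.872 (0.593 to 1.28) whose interval contains 1. Hist2h3b, at chr3:96268654-96269155, was at 1.55 FPKM (0.625 to 2.48) in the control and 0.476 FPKM (0 to 0.969) in Klf9-OE PGCs, on 11.2 and 3.72 implied reads. It was the clustered gene furthest below its control level, with a log2 fold change of -1.52. However, 100% of the 51-base stretches of its longest transcript also occur in other genes, so its reads may not have been placed uniquely. Of the 13 genes that share them, 11 are H3 genes by name. Hist1h3c, the highest H3 gene in Klf9-OE PGCs, was at 1.34 FPKM in the control and 1.68 FPKM in Klf9-OE PGCs.

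H4 genes summed to 19.8 FPKM in the control and 23.4 FPKM in Klf9-OE PGCs, a ratio of 1.18 (0.853 to 1.64). Of 12 genes, 9 were higher and the median log2 fold change was 0.22. Hist1h4i had the highest FPKM of the type, at 3.38 (1.79 to 4.97) and 4.44 (2.81 to 6.08), and its intervals overlapped. Hist4h4, the gene on chromosome 6, was at 0.309 FPKM (0 to 0.747) and 1.01 FPKM (0.297 to 1.73), on 1.99 and 8.0 implied reads. The 5 types were not tested against each other. The H1 and H2B ratios had intervals wholly above 1, but that of H1 did not without Hist1h1c, whose FPKM was calculated over unequal lengths. These intervals cover the error of estimation in the 2 libraries alone.

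**Figure D2:**
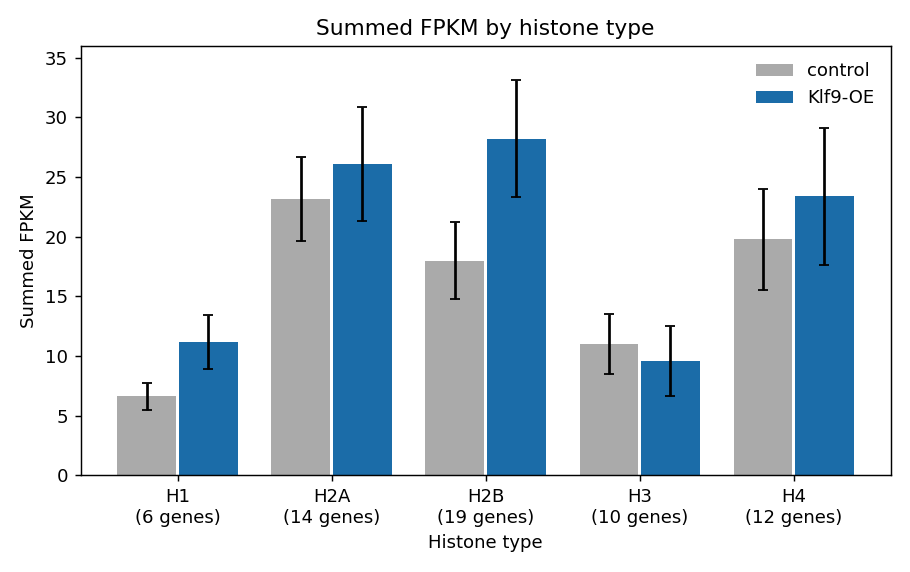
Summed FPKM of the genes of each histone type in the control (grey bars) and Klf9-OE PGCs (blue bars), each bar from 1 library. Error bars are 95% intervals of the sum from the deposited gene intervals, with those of Klf9-OE widened by the square root of 2. H2B stood at 18.0 and 28.2 and H1 at 6.61 and 11.2, while the bars of H2A, H3 and H4 have overlapping intervals.

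The genes just inside the 2-fold limit were Hist4h4, Hist3h2ba and Hist1h1t, with log2 fold changes of 1.44, 1.05 and -1.06. Those just outside were Hist2h4, which had 0.202 FPKM in the control and 0.496 FPKM in Klf9-OE PGCs, Hist1h2bb and Hist1h2bc, each at a log2 fold change of 0.98. The limit therefore separated genes on a few reads from Hist1h2bc, one of the genes with most reads, which differed by 2.0-fold in FPKM before the addition of 0.1.

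By position, Hist1 held 89.0% of the summed FPKM in the control and 90.4% in Klf9-OE PGCs. Its sum was 69.9 and 89.0 FPKM, a ratio of 1.27 (1.11 to 1.46), and 37 of its 51 genes were higher. Hist2 summed to 4.32 and 3.71 FPKM, a ratio of 0.859 (0.455 to 1.62), with 3 of 6 genes higher. This sum leaves out much of the Hist2 signal. Hist2h2aa1 and Hist2h2aa2, listed jointly, were at 3.21 FPKM in the control at chr3:96239779-96240374 and again at chr3:96245457-96246052. With joint names included the log2 ratio of Hist2 was -0.14 in place of -0.22. Hist3 summed to 3.99 and 4.75 FPKM, a ratio of 1.19 (0.692 to 2.05), nearly all of it from Hist3h2a. Hist1 falls into 4 blocks when it is divided at gaps of more than 100 kb. The block of 29 genes from Hist1h4h to Hist1h1a, 233.4 kb long, summed to 39.4 FPKM in the control and 52.2 FPKM in Klf9-OE PGCs, a ratio of 1.33 (1.11 to 1.58). The block of 15 genes from Hist1h2bl to Hist1h2bq had a ratio of 1.10 (0.803 to 1.5) and that of 5 genes from Hist1h2ah to Hist1h2bj a ratio of 1.27 (0.883 to 1.84). The last block, of Hist1h2ba and Hist1h2aa, summed to 1.12 and 2.56 FPKM, a ratio of 2.29 (0.811 to 6.48). The intervals of these 4 ratios overlapped, and genes of different types with higher and lower FPKM lay beside each other.

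**Figure D3:**
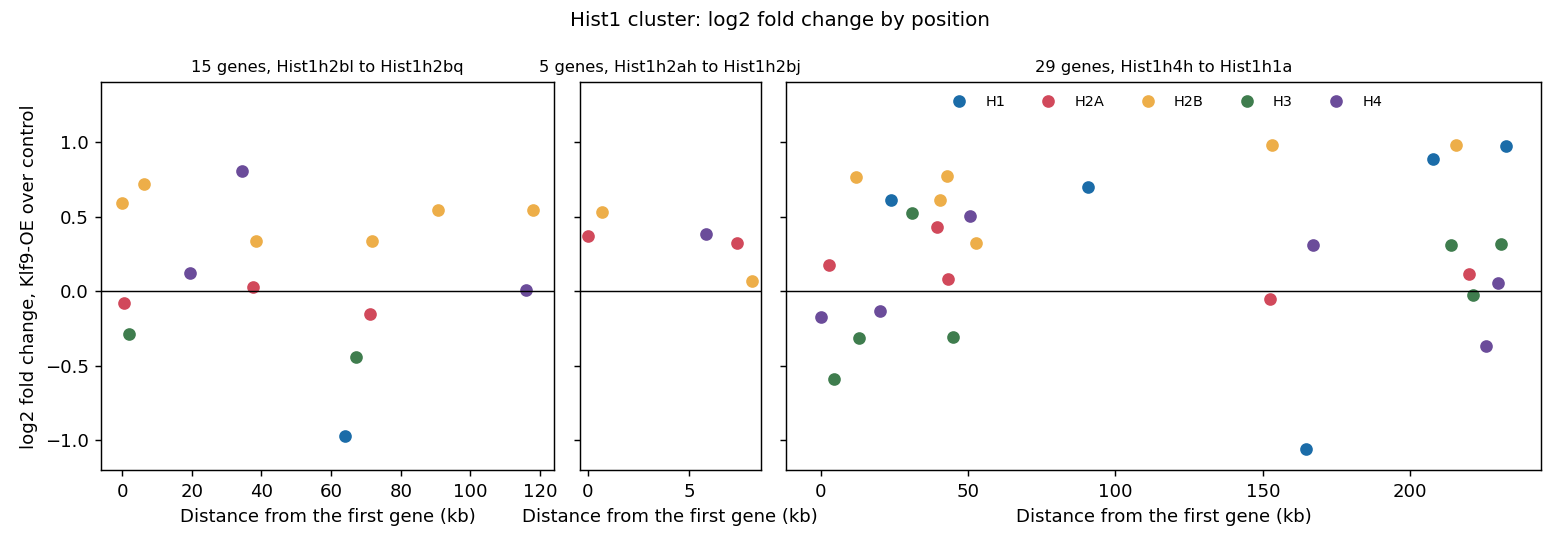
Log2 fold change, Klf9-OE over control on log2(FPKM + 0.1), of the 49 Hist1 genes in the 3 larger blocks against distance in kb from the first gene of the block, coloured by histone type. Each point compares 1 library with 1 library. All H2B points lie above 0, and neighbours of other types lie on both sides of it.

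Many H2A and H2B genes are arranged head to head, sharing the DNA between their starts. There were 11 such pairs with starts at most 500 bases apart, and their distances were 173 to 306 bases. The H2B gene was higher in Klf9-OE PGCs in 10 pairs, the exception being that of Hist3h2a with the pseudogene at 0, and the H2A gene in 8. The larger log2 fold change was in the H2B gene in 7 pairs, and the medians over the pairs were 0.53 for H2B and 0.13 for H2A. Hist1h2bc and its partner Hist1h2ac differed in this way, with Hist1h2ac at 1.85 FPKM in the control and 1.78 FPKM in Klf9-OE PGCs. Hist2h2ac and Hist2h2be stood the other way, with log2 fold changes of 0.69 and 0.23.

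The octamer, the 8 letters ATTTGCAT, is known as an element of H2B promoters to which POU-domain (OCT) factors bind. It was looked for on both strands in RefSeq promoters of GRCm38.p6, from 250 bases before to 50 after the start, which 55 of the clustered genes had. It was found in 7 of 16 H2B and 7 of 14 H2A promoters and in 0 of 6 H1, 8 H3 and 11 H4 promoters, against 1.97% of all 27025 promoters. The following windows, with the octamer or its reverse complement in capitals, each lie between the genes of a divergent pair and are given in the direction of the H2B gene. They are the pairs in which the promoters of both genes contained the same copy.
Hist1h2ba: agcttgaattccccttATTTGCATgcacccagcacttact
Hist1h2bg: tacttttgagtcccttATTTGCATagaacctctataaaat
Hist1h2bk: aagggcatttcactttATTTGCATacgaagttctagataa
Their places are chr13:23934297-23934336 (-), chr13:23571325-23571364 (+) and chr13:22035775-22035814 (+), and the partners are Hist1h2aa, Hist1h2ae and Hist1h2ah. The 7 H2B genes with an octamer had a median log2 fold change of 0.61, 6 of them higher, and the 9 without had 0.54, 9 of them higher. The CCAAT box, searched as CCAAT on both strands, was in 47 of the 55 promoters, against 41.1% of all promoters, and in 3 of the 11 H4 promoters. A match is a description of the letters and not of binding.

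Hist1h2ba, with its partner Hist1h2aa and with Hist1h1t, belongs to the histone genes known from the testis, where the products of the first pair are called TH2B and TH2A. Hist1h2ba was at 1.12 FPKM (0.215 to 2.02) in the control and 2.06 FPKM (1.02 to 3.11) in Klf9-OE PGCs. Hist1h2aa was listed at 0 in the control and at 0.496 FPKM (0 to 1.06) in Klf9-OE PGCs, on 3.13 implied reads. No fold is given for it, and its place among the 2-fold higher genes rests on the added 0.1. Of the 3 genes, both members of the divergent pair were therefore higher and Hist1h1t lower, all with overlapping intervals.

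The coordinates of the loci bear on the value of Hist1h1c. Of the 61 genes, 60 had the same coordinates in both libraries, and the exception was Hist1h1c. Its locus was chr13:23738807-23740255 in the control, 1449 bases, and ended at 23739531 in Klf9-OE PGCs, 725 bases, 4 bases after the end of the stem-loop. GENCODE gives the gene a single exon, chr13:23738808-23740367 (+), with the coding sequence at 23738849 to 23739484 and 840 bases after the stem-loop. In Klf9-OE PGCs an unnamed locus at chr13:23739836-23740223 lay inside that exon, at 6.79 FPKM (4.68 to 8.90). The FPKM of Hist1h1c in the 2 libraries was thus calculated over unequal lengths. FPKM multiplied by the length in kb and summed over the named and unnamed loci was 4.78 in the control and 7.12 in Klf9-OE PGCs. The ratio was 1.49, against the 1.88 of the deposited FPKM. This product takes the full length of each locus, so 1.49 is a rough value that may be too high. Implied reads were 101 in the control, and 108 and 41.3 at the named and unnamed loci in Klf9-OE PGCs. These reads are not scaled for depth. At equal FPKM the median symbol had 1.21 times as many implied reads in Klf9-OE PGCs. For the other 47 clustered genes with both lower bounds above 0, the ratio of implied reads divided by the ratio of FPKM was 1.02 to 1.59, where the median of 14442 symbols was 1.21, and for Hist1h1c it was 0.569.

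**Figure D4:**
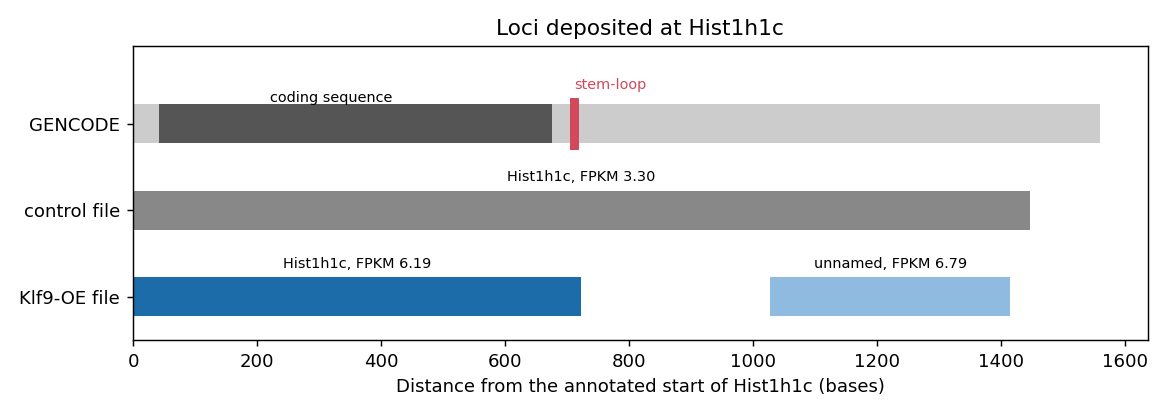
Loci at Hist1h1c against the distance in bases from its annotated start. The top row shows the GENCODE exon (light grey), its coding sequence (dark) and the stem-loop (red), and the lower rows the loci deposited for the control and Klf9-OE PGCs with their FPKM. The control locus runs over both sides of the stem-loop, and the Klf9-OE locus of the same name ends 4 bases beyond it.

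The annotated length after the stem-loop varied among the genes. In 21 genes GENCODE has more than 100 bases after it, and their median was 0.938 FPKM in the control and 1.36 FPKM in Klf9-OE PGCs, with 17 higher and a median log2 fold change of 0.43. In the 18 with at most 100 bases the medians were 1.43 and 1.71 FPKM, with 13 higher and a median log2 fold change of 0.21. FPKM gives no position of reads within a locus, and a deposited locus can be shorter than the annotated transcript. The locus of Hist1h4d, a gene with 770 annotated bases after its stem-loop at chr13:23581950-23581965, ended at 23581969 in both libraries. In such a gene the bases after the stem-loop lay almost wholly outside the measured locus. The division by annotated length therefore does not describe signal after the stem-loop.

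The genes share sequence to different degrees, which limits what a single gene can show. Of the 51-base stretches of the longest transcript, the length of a read, a median of 46.6% over the 61 genes also occurred in another gene, and in 27 genes it was over 50%. Any other GENCODE gene was counted, also one that overlaps at the same place, so this can overstate how many reads were ambiguous. It can also understate it, because the longest transcript can extend well beyond the deposited locus. Hist1h2ac shared 339 of 2432 stretches (13.9%) of a transcript of 2482 bases, but its locus was only chr13:23683473-23683959. The share within the measured loci was not computed. By type the median was 1.10% in H1, 61.3% in H2A, 45.2% in H2B, 57.1% in H3 and 33.7% in H4. Hist1h2bc shared 30.4% and Hist1h1c 8.41%, while Hist1h1a shared none. Hist1h2bq and Hist1h2br had the same FPKM, 0.207 in the control and 0.346 in Klf9-OE PGCs, and cannot be told apart. A further 7 rows in each library carried 4 joint names of near-identical neighbours, and these rows were not counted among the 61 genes. Hist1h4n was listed both alone, and so counted, and in a joint name with Hist1h4m. The control FPKM was 2.36 for both entries, and in Klf9-OE PGCs it was 2.38 alone and 2.51 jointly, so Hist1h4n may not be separable from its copy. The highest of these, Hist2h2aa1 and Hist2h2aa2, was at 3.21 FPKM in the control and 3.23 FPKM in Klf9-OE PGCs.

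The other genes of the pathway, taken from lists, differed little in their medians. Of the 19 variant genes found in both libraries 0 differed 2-fold, and the median log2 fold change of those above 0 was 0.03. H2afz, encoding H2A.Z, was at 374 FPKM in the control and 382 FPKM in Klf9-OE PGCs. The H3.3 genes stood in different directions, H3f3a at 338 and 252 FPKM and H3f3b at 252 and 289 FPKM. By non-overlapping intervals 4 of the 15 variant genes above 0 were higher and 4 lower, where 11.3% and 14.4% of all symbols were. H1f0, at 14.6 and 21.2 FPKM, was among the higher and H2afy, encoding macroH2A1, at 221 and 144 FPKM, among the lower. Of 22 genes for the processing and turnover of histone mRNA 3′ ends, 1 was 2-fold lower and 0 higher, with a median log2 fold change of 0.01. Slbp was at 113 and 114 FPKM, Sympk, a scaffold of the cleavage complex, at 84.6 and 74.3 FPKM, the latter with an interval of 0 to 11347 FPKM that leaves it without usable precision, and Ncbp1, of the cap-binding complex, at 82.4 and 82.3 FPKM. The gene that was lower was Eri1, encoding an exonuclease that trims the histone mRNA end, at 22.1 FPKM in the control and 9.35 FPKM in Klf9-OE PGCs. Its implied reads were 400 and 914, and their ratio divided by that of FPKM was 5.39, far from the 1.21 of all symbols, so its lower FPKM did not go with fewer implied reads.

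Of 23 histone chaperone genes 0 differed 2-fold, with a median of -0.02. Those of highest FPKM were Npm1, at 1245 FPKM in the control and 1281 FPKM in Klf9-OE PGCs, Nap1l1, at 427 and 424 FPKM, and Hat1, encoding the acetyltransferase of new H4, at 319 and 322 FPKM. By non-overlapping intervals 2 of the 23 chaperone genes were higher and 7 lower. Of all symbols 11.3% were higher and 14.4% lower by this rule, and of those with at least 1 FPKM 14.9% and 20.3%. Of 30 S phase and cyclin E genes 0 differed 2-fold, 19 were higher, and the median was 0.02. Pcna, the sliding clamp of replication, was at 167 and 188 FPKM, Lig1, DNA ligase, at 156 and 142 FPKM, and Mcm7, of the replicative helicase, at 127 and 128 FPKM. By non-overlapping intervals 8 of the 30 S phase genes were higher and 2 lower, beside the same shares of all symbols. The higher included Ccne2, encoding cyclin E2, at 15 and 25.9 FPKM, Rrm2, of ribonucleotide reductase, at 24.1 and 34.1 FPKM, and Mcm5, of the helicase, at 83.2 and 110 FPKM. For Ccne2 the ratio of implied reads divided by that of FPKM was 0.897, under the 1.21 of all symbols. The lower were Lig1 and Gins2, a replication factor, at 16.3 and 9.76 FPKM.

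**Figure D5:**
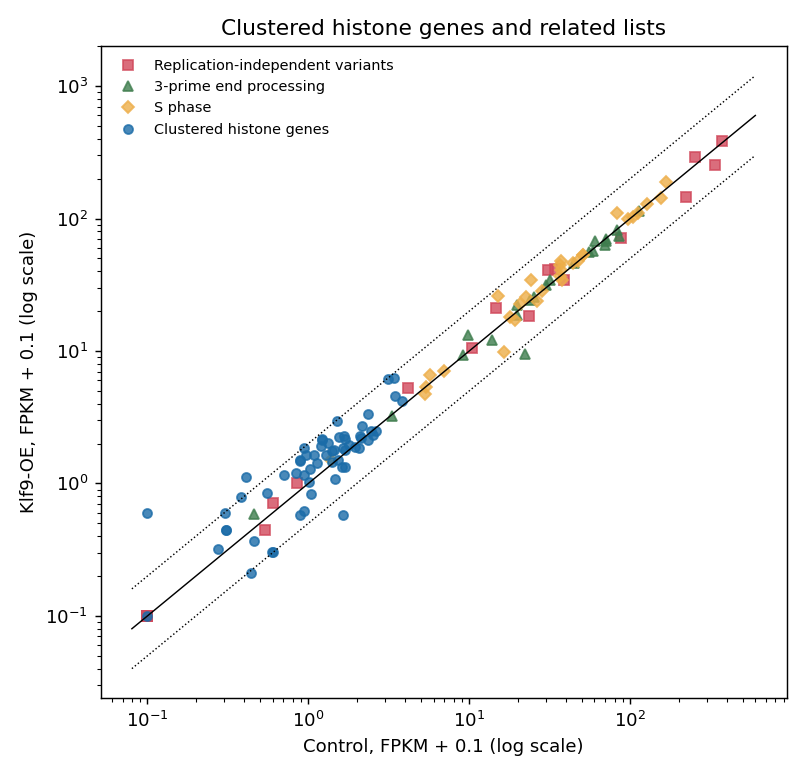
FPKM + 0.1 in the control (horizontal, log scale) and Klf9-OE PGCs (vertical, log scale) of the clustered histone genes and of 3 related lists, 1 point per gene and 1 library per axis. The solid line marks equal values and the dotted lines a 2-fold difference. The clustered genes lie at or below 6.19 FPKM, under most variant genes, and more of them lie above the solid line than below it.

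The labelled cell type was visible in its markers. All 13 listed germ cell markers were above 0, with Ddx4 at 300 FPKM in the control and 292 FPKM in Klf9-OE PGCs, Pou5f1 at 387 and 277 FPKM, and Dppa3 at 294 and 179 FPKM. They summed to 1824 and 1537 FPKM, and 12 of 13 were lower in Klf9-OE PGCs, at a median log2 fold change of -0.31. By non-overlapping intervals 10 of the 13 were lower and 1 higher, where 14.4% of all symbols were lower and 11.3% higher. Markers of gonad somatic, endothelial and blood cells were more often higher than lower. Of 15 listed, 13 were found in both libraries, and Hbb-bt and Pdgfra were not. Of the 13, 8 were higher and 5 lower, with sums of 49.0 and 68.9 FPKM. By non-overlapping intervals 7 were higher and 1 lower, beside the same shares of all symbols. Among the higher, Cdh5, of endothelium, was at 2.0 and 5.09 FPKM and Pecam1 at 16.8 and 24.2 FPKM. Amh, Wt1, Gata4, Col1a1 and Col1a2 were also higher with intervals that did not overlap. Kdr, the remaining higher gene and also of endothelium, was at 0.367 and 0.465 FPKM, with overlapping intervals. The lower were Sox9, at 2.04 and 1.09 FPKM with intervals that did not overlap, Nr5a1, at 1.61 and 1.19 FPKM, Foxl2, and the blood cell markers Ptprc and Adgre1, which were below 0.1 FPKM in both libraries. None was at 0. In bulk RNA fewer cells of a type and less RNA per cell cannot be told apart, and the part of these cells in the values of the histone genes was not tested.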

How the data were processed

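Each library was made from 500 ng of RNA and read as 51-base single ends. The authors mapped the reads to mm10 and RefSeq with TopHat2 and Bowtie and estimated the deposited FPKM values and their 95% intervals with Cufflinks. Versions and total read numbers were not given in the sources used here, so depth is known only through reads implied by the intervals, computed as the square of 2 × FPKM divided by the upper half-width. Intervals cover counting and assignment error only.

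Genes were matched by symbol, and rows with joint names were left out. The members and lists were chosen with earlier results of these data known. With 1 library per group no test was run. Differences were taken on log2(FPKM + 0.1), called at 2-fold, and in the same way for all 18337 symbols above 0. Fold changes on this scale understate the change of low genes. Sums used intervals combined in quadrature. A pseudocount of 0.01 or 1, a minimum of 1 FPKM, rescaling, joint names and leaving out the highest gene were tried. Named genes were those of at least 5 FPKM, those of at least 1 FPKM that differed 2-fold, the highest of each type and cluster, the 3 testis genes, and the 3 nearest each side of the limit. From each related list the 3 highest genes and those differing 2-fold were named. Listed genes not found by their own symbol in both libraries were left out. They were H3f3c of the variants, Cpsf3l, Cstf2 and Ncbp3 of the 3′ processing genes, and Asf1b, Hjurp, Npm3 and Ubn2 of the chaperones. Of the somatic and blood markers they were Hbb-bt and Pdgfra. Other genes, such as the remaining H1 genes, those in divergent pairs and the markers and list genes beyond these, were chosen after their values were seen. Sequences were read from GENCODE vM21 transcripts and from RefSeq promoters. Starts of loci were converted to 1-based. The scripts were checked on simulated data and used Python 3.11.15, numpy 2.4.6 and pandas 2.3.3.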

Additional observations from a re-analysis of the deposited data

Results flagged for a closer look

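Signal lay in 2 loci without a gene name inside annotated exons of clustered histone genes, which the comparisons by symbol did not use. Both were listed in Klf9-OE PGCs and not in the control. The locus in the exon of Hist1h1c was at 6.79 FPKM, on 41.3 implied reads. The locus in the exon of Hist3h2a, chr11:58955469-58955754, was at 4.76 FPKM (2.22 to 7.31), on 14 implied reads. The Klf9-OE library listed 15127 unnamed loci in all and the control 6482, so unnamed loci were more numerous there in general. The part of this difference in the 2 loci was not tested.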

How the results depend on the processing

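The 2-fold counts depended on how low values were handled. Of 3 genes higher and 2 lower, a pseudocount of 0.01 gave 6 and 4, a pseudocount of 1 gave 0 and 0, a minimum of 1 FPKM gave 1 and 1, and the ratio with no pseudocount gave 7 and 4. Rescaling to the same sum of FPKM gave 7 genes higher, where 4.93% of all symbols were. At a minimum of 1 FPKM 3.68% of all symbols were higher and 3.51% lower. No share of all symbols was taken with the other pseudocounts or with none. Those counts therefore cannot be set against a background. The construction of these alternatives acts on genes near the limit or near 0. The log2 ratio of the Hist3 sum was 0.25, and 1.30 without Hist3h2a, which leaves genes on few reads. The other 104 alternatives of the main counts, medians and sums stayed within 1.5 times the count or within the width set for the value. No count, sum or median of the clustered genes changed direction. The median has no interval of its own. For the clustered genes the width set was 0.191, the half-width of the log2 ratio of their sum. A pseudocount of 1 took this median from 0.32 to 0.17. The sign differed in 3 alternatives, all in medians near 0 of related lists. That of the 3′ processing genes was 0.0066, and -0.0011 at a minimum of 1 FPKM, and that of the chaperones was -0.017, and 0.00017 or 0.042 after rescaling to the same upper quartile or sum. Intervals widened for Klf9-OE left 2 genes higher in place of 3, the one lost being Hist1h1a. No share of all symbols was taken with widened intervals, so this count has no background beside it. Leaving out Hist1h1c and Hist1h2bc, chosen after seeing the data, gave a log2 ratio of 0.27 for Hist1 in place of 0.35. Rescaling moved the median of all symbols to 0.04 at most. No paired analysis was possible because each group had 1 library. Depth limits most single genes, which rested on fewer than 20 implied reads.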
